A study of Macaca mulatta with 2 samples.

Results

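ATF4 integrated stress response genes were followed here in cultured Sertoli cells of the rhesus macaque (Macaca mulatta), the somatic cells that nurse germ cells in the seminiferous tubule. The 10 members are TRIB3, DDIT3, DDIT4, ASNS, ATF4, STC2, PSAT1, PHGDH, SESN2 and CEBPG, found as every non-control spot whose gene name in the scanner files was one of these symbols. This gave 14 probes, of which 13 passed the filter on dim signals, and all 10 genes were measured among 19611 genes in all. The members were selected on measured values of this same comparison, so their differences are a description and were not tested as a group.

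The pubertal cultures came from animals of 18 to 22 months whose puberty had been induced by intermittent GnRH, at 0.15 µg/min for 2 min in every 3 h, over 4 to 5 weeks. The infant cultures came from animals younger than 3 months. All 4 cultures, at both stages, were exposed to 100 nM testosterone and 5 ng/ml FSH for 24 h, so no culture here was free of these hormones. Each of 2 arrays paired 1 pubertal culture with 1 infant culture: pubertal culture 1 (Cy5) with infant culture 1 (Cy3) on array 1, and pubertal culture 2 (Cy3) with infant culture 2 (Cy5) on array 2. The labels call the cultures of a stage biological replicates, and the number of animals behind each culture is not given in the sources used here. Because age and GnRH treatment came together, they cannot be told apart.

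The integrated stress response is a shared answer of animal cells to amino acid shortage, misfolded protein in the endoplasmic reticulum, haem shortage and viral RNA. Each signal activates a kinase that phosphorylates the initiation factor eIF2, which slows most protein synthesis while the messenger RNA of the transcription factor ATF4 is translated more. ATF4, with C/EBP partners, then induces genes for amino acid supply, tRNA charging, growth restraint through TORC1 and, when stress lasts, cell death. These roles are known mainly from human and mouse cells.

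Signals came from human 60-base probes hybridised with macaque RNA, so 2 probes that lie in coding sequence are shown for orientation: they read ATF4 itself and its feedback inhibitor TRIB3. Both are in lower case, 5′ to 3′, as designed, and no mismatch to macaque RNA was looked for. On human build hg17 they lie on the plus strand at chr22:38242375-38242434 and chr20:324856-324915, and each is the sense sequence of its transcript.
ATF4: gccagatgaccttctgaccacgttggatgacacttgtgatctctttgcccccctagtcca
TRIB3: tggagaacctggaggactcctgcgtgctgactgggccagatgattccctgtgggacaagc

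Of the 43376 spots of an array, the pubertal RNA was well above background at 74.8% on array 1 and 62.6% on array 2, against 60.9% and 71.5% for the infant RNA. Saturated spots numbered 586 and 2 in the pubertal channels and 0 and 428 in the infant channels, so they lay almost wholly in Cy5. The number of arrays limits the precision: limma's moderated test had 1 residual degree of freedom beside 3.83 from its prior. It called 0 of 19611 genes (0%) at an adjusted p under 0.05, with 794 genes at an unadjusted p under 0.05. Levels below are log2 normalised intensities of a probe, comparable between cultures but not between probes. Ratios are log2 of pubertal over infant on 1 array, and the SE of their mean is limma's moderated SE over n = 2 array pairs.

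The main pattern lay between the pairs. On array 2, 8 of the 10 members were at least 2-fold lower in pubertal than in infant cells, where 2.37% of all genes were. On array 1 this held for 2 members, STC2 and PSAT1, against 2.97% of all genes. The median ratio of the members was -0.09 on array 1 and -1.45 on array 2, with 0.05 and -0.03 over all genes. It was -0.26 and -1.45 with the probes of a gene averaged, and -0.22 and -1.50 with the scanner's own ratios. Infant culture 2 had the highest of the 4 levels for 8 of 10 members, a position it held for 26.1% of all genes.

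ATF4, the transcription factor at the centre of the response, was read by both its probes. The brighter one, which lies further 3′ (chr22:38243077-38243136, plus strand), gave levels of 15.01 and 14.12 in pubertal cultures 1 and 2, against 15.11 and 15.26 in infant cultures 1 and 2. Its ratios were -0.10 and -1.14, a mean of -0.62 ± 0.33. This spot was saturated in pubertal culture 1 and in infant culture 2, so those levels may be understated. The unsaturated ATF4 probe printed above had 11.60 and 11.92 in pubertal cultures, against 12.32 and 13.09 in infant cultures. With this probe both pubertal levels lay under both infant levels, and the ratios were -0.72 and -1.17, closer to each other than those of the brighter one. For the brighter probe the order of pubertal culture 1 and infant culture 1 is not settled, because the first is saturated.

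CEBPG, a C/EBP family factor that pairs with ATF4 on DNA, had 8.30 and 8.37 in pubertal cultures, against 8.30 and 9.54 in infant cultures (chr19:38562533-38562592, plus strand). Infant culture 2 stood alone and the other 3 cultures lay together, so the stages overlapped. Its ratios were -0.00 and -1.18, a mean of -0.59 ± 0.36, and the first of these was 0.11 in the authors' deposited table. DDIT3 encodes CHOP, the factor induced by ATF4 that is known for its part in cell death under lasting stress. It had 8.39 and 8.38 in pubertal cultures, against 8.47 and 9.71 in infant cultures. Again infant culture 2 stood above the other 3, with ratios of -0.07 and -1.33 and a mean of -0.70 ± 0.37. The DDIT3 probe maps to chr12:56197467-56197793 on the minus strand, a span of 327 bases for a 60-base probe, so it crosses an intron.

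TRIB3, a pseudokinase that is induced by ATF4 and CHOP and restrains them in turn, differed most between the pairs. Its brighter probe (chr20:326107-326166, plus strand) had 11.96 and 11.34 in pubertal cultures, against 11.99 and 14.89 in infant cultures. Pubertal culture 1 and infant culture 1 were nearly level, while pubertal culture 2 was 11.7-fold below infant culture 2. With a ratio of -3.55, TRIB3 ranked 3 from the lowest of 19611 genes on array 2, but on array 1, at -0.03, it stood at 41.8% of the way from the lowest. The mean was -1.79 ± 0.84, an SE that reflects this gap. The TRIB3 probe printed above was dimmer and had 7.12 and 7.27 in pubertal cultures, against 7.32 and 9.23 in infant cultures. Infant culture 2 was the highest here too, with ratios of -0.20 and -1.96, and of -0.45 and -2.63 in the authors' deposited table.

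**Figure D1:**
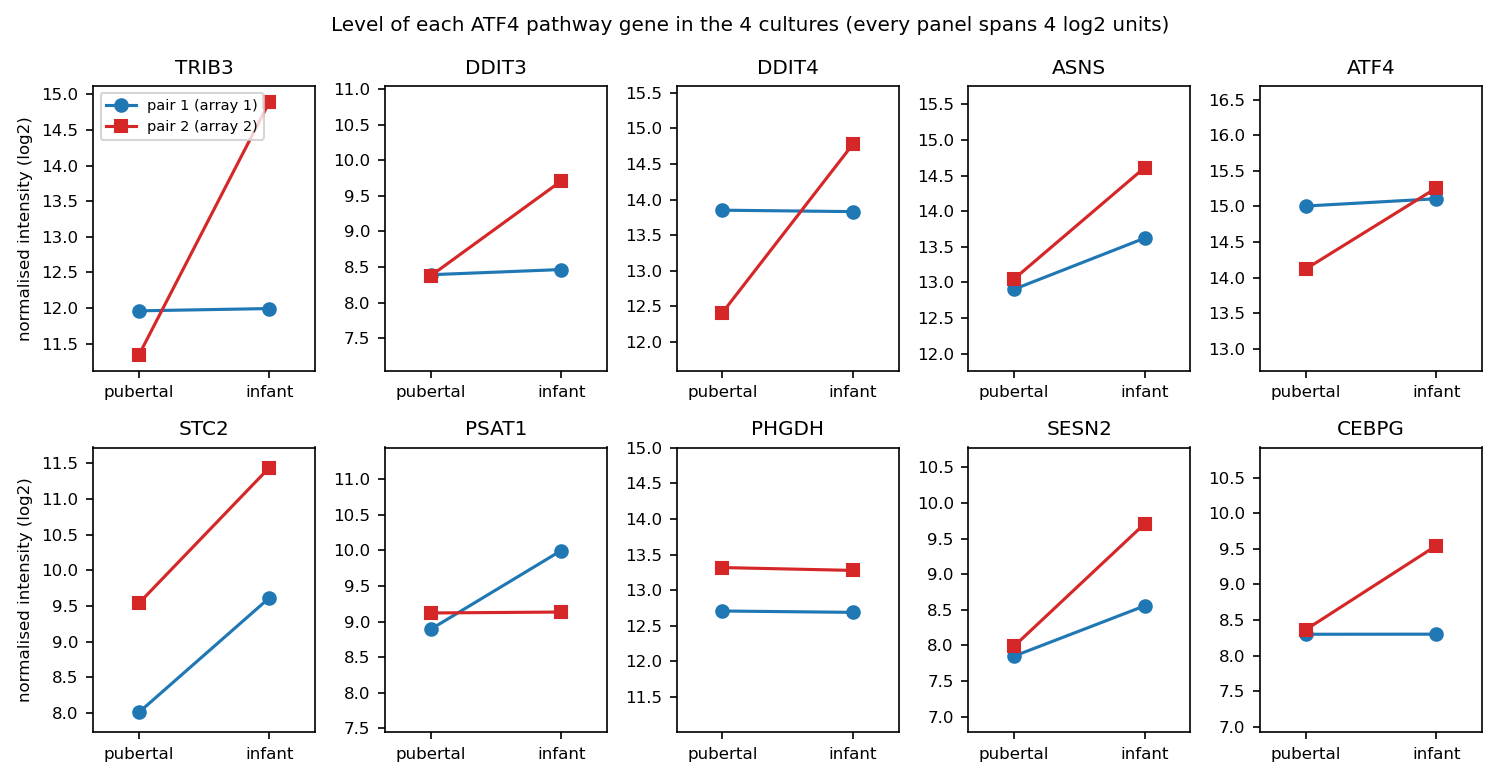
Levels of the 10 members as log2 normalised intensity (vertical axis, each panel spanning the same number of log2 units) in pubertal and infant cultures (horizontal axis), 1 probe a gene. Lines join the 2 cultures of an array, circles for pair 1 and squares for pair 2; for TRIB3 the pair 2 line runs between 11.34 in the pubertal and 14.89 in the infant culture while the pair 1 line is nearly flat.

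Among the genes of amino acid supply, ASNS, which makes asparagine, had 12.91 and 13.05 in pubertal cultures, against 13.62 and 14.61 in infant cultures (chr7:97126112-97126171, minus strand). Both pubertal cultures lay under both infant cultures, and the pubertal cultures lay 0.14 apart. The ratios were -0.72 and -1.56, a mean of -1.14 ± 0.31 or 2.20-fold lower in pubertal cells. A second ASNS probe (chr7:97182787-97182846) failed the filter and gave ratios of -0.16 and 0.09, with levels of 6.17 and 6.35 in pubertal cultures, against 6.34 and 6.26 in infant cultures. That probe was designed on a clone that the file describes as chimeric.

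The serine synthesis genes had other patterns. PHGDH, the first enzyme of serine synthesis, had 12.71 and 13.32 in pubertal cultures, against 12.69 and 13.28 in infant cultures. The stages overlapped, pubertal culture 2 lay 0.61 above pubertal culture 1 and infant culture 2 lay 0.59 above infant culture 1, and the ratios were 0.02 and 0.04 with a mean of 0.03 ± 0.24. PSAT1, the next enzyme, had 8.89 and 9.12 in pubertal cultures, against 9.997 and 9.13 in infant cultures (chr9:78174332-78174391, plus strand). Here infant culture 1 stood above the other 3, opposite to most other members, with ratios of -1.11 and -0.01 and a mean of -0.56 ± 0.34. Its pubertal culture 2 lay just under its infant culture 2.

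DDIT4 and SESN2 encode stress proteins that restrain the growth kinase complex TORC1. DDIT4 had 13.85 and 12.41 in pubertal cultures, against 13.83 and 14.78 in infant cultures (chr10:73705369-73705428, plus strand). The stages overlapped because pubertal culture 1 and infant culture 1 were level. On array 2 DDIT4 was 5.15-fold lower in pubertal cells and ranked 23 from the lowest, and the pubertal cultures themselves lay 1.44 apart. Its ratios were 0.02 and -2.37, a mean of -1.17 ± 0.59. SESN2, which also senses leucine, had 7.85 and 7.99 in pubertal cultures, against 8.55 and 9.71 in infant cultures (chr1:28292336-28292395, plus strand). Its stages did not overlap, and the ratios were -0.70 and -1.72 with a mean of -1.21 ± 0.33, 2.32-fold lower in pubertal cells.

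STC2, a secreted glycoprotein induced by ATF4 under stress of the endoplasmic reticulum, was the member with the most even pairs on the low side. It had 8.01 and 9.54 in pubertal cultures, against 9.61 and 11.44 in infant cultures (chr5:172676973-172677032, minus strand). Each pubertal culture lay well under the infant culture of its own array, although pubertal culture 2 came just under infant culture 1. The ratios were -1.61 and -1.90, a mean of -1.76 ± 0.25 or 3.38-fold lower in pubertal cells. STC2 alone among the members was at least 2-fold lower on both arrays, which held for 0.352% of all genes. With arrays centred on a median instead of loess its ratio on array 1 was -0.96, just short of that size. Its second probe (chr5:172674593-172674652) was dimmer, with 6.24 and 7.08 in pubertal cultures, against 7.26 and 8.49 in infant cultures. The ratios of that probe were -1.01 and -1.41, and -2.56 and -2.17 in the authors' deposited table, whose values follow the scanner software's ratios and carry no added offset.

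In all, 8 of 10 members were lower in pubertal cells on both arrays, where 21.9% of all genes were, and with median centring 3 were (STC2, PSAT1 and SESN2). Ratios near 0 on 1 array, as for CEBPG, PSAT1 and TRIB3, count among the 8. PHGDH was higher on both by at most 0.04 and DDIT4 had opposite signs. For 7 of 10 members both pubertal levels lay under both infant levels, which held for 14.2% of all genes. The highest pubertal level was close to the lowest infant level for PSAT1 (9.12 against 9.13) and TRIB3 (11.96 against 11.99). The same was so for DDIT3 (8.39 against 8.47), STC2 (9.54 against 9.61) and ATF4 (15.01 against 15.11). Both counts include ATF4 by its saturated probe, and its unsaturated probe also met both conditions. These counts come from the contrast that the members were chosen on, and nothing is read from their distance to the shares of all genes.

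The cultures of 1 stage also differed from each other. Infant culture 2 exceeded infant culture 1 in 9 of 10 members, by a median of 1.07, while pubertal culture 2 exceeded pubertal culture 1 by a median of 0.10. The same medians over all genes were 0.04 and -0.03. Infant culture 2 and pubertal culture 1 were both labelled with Cy5, so in these comparisons culture and dye cannot be told apart. Averaged as Cy5 over Cy3, where a difference between stages cancels, TRIB3 was at 1.76, DDIT4 at 1.19, DDIT3 at 0.63 and PHGDH at -0.01, and DDIT4 was the 1 member of 10 higher in Cy5 on both arrays. With arrays centred on a median instead of loess, the median of all genes moved to 0.63 on array 1 and -0.42 on array 2. Relative to those medians the members' median was -0.11 on array 1 and -1.68 on array 2, and 6 of 10 members lay under the median of all genes on both arrays, against 8 of 10 after loess.

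**Figure D2:**
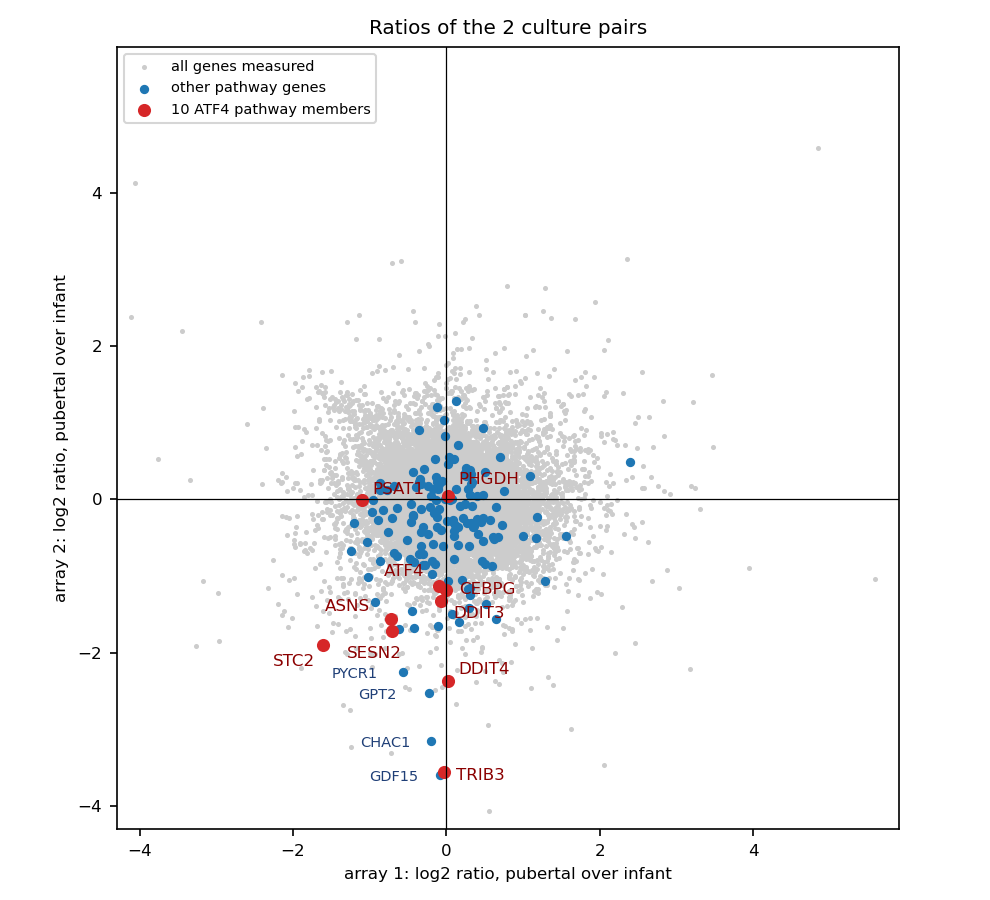
Log2 ratio of pubertal over infant on array 1 (horizontal axis) and array 2 (vertical axis) for all genes measured (grey), other pathway genes (blue) and the 10 members (red). TRIB3, DDIT3, DDIT4, ATF4 and CEBPG hang below the centre, near 0 on array 1 and at -1.14 to -3.55 on array 2, with ASNS, SESN2 and STC2 down and to the left, PSAT1 to the left and PHGDH at the centre. ATF4 is plotted by its brighter probe, saturated in pubertal culture 1 and infant culture 2. Its unsaturated probe had -0.72 and -1.17.

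Of 151 further genes of the pathway and its neighbours, 150 were measured, and limma called none. In pubertal cells 51 (34.0%) had a lower and 26 (17.3%) a higher ratio on both arrays, where 21.9% and 23.5% of all genes had, and with median centring 10 had a lower one. The median ratio was -0.00 on array 1 and -0.27 on array 2. The moderated SE of the mean of the pathway genes named below lay between 0.24 and 0.83. At least 2-fold lower on array 2 were 22 of them, or 14.7%, against 4 on array 1. Infant culture 2 had the highest level for 69 of the 150, or 46.0%, against the 26.1% over all genes. For each list below, counts on both arrays stand beside the same 21.9% lower and 23.5% higher of all genes.

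Upstream of ATF4, the list of kinases and phosphatase parts that set eIF2 phosphorylation, with eIF2 and eIF2B subunits, had medians near the centre. Of these 17 genes 2 were lower and 5 higher on both arrays, where 21.9% and 23.5% of all genes were, with medians of 0.05 and 0.01. The genes with the largest means of 1 sign had 0.28 and 0.39 (PPP1R15B, a phosphatase subunit that targets eIF2) and 0.04 and 0.55 (EIF2S1, the eIF2 subunit that is phosphorylated). EIF2S2 had 0.48 and 0.05, with a second probe at a mean of -0.05, and the exchange factor subunit EIF2B3 had 0.32 and 0.20. Opposite signs were found for 10 of the 17 genes, where 54.6% of all genes had them. Among these 10 were the kinase EIF2AK2 at -0.86 and 0.12 and the phosphatase subunit PPP1R15A at 0.15 and -0.59.

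Among 16 transcription factors beside ATF4, 7 were lower and 4 higher on both arrays. With the probes of a gene averaged, 9 were lower. CEBPA counts as higher by its brightest probe, at 0.31 and 0.38. Its further probes went the other way, at -1.64 and -1.38, and at -1.62 and -1.29. ATF3, a stress-induced factor downstream of ATF4, had levels of 8.93 and 9.57 in pubertal cultures, against 9.04 and 11.23 in infant cultures, with infant culture 2 far above the rest and ratios of -0.11 and -1.65, a mean of -0.88 against -0.58 by a second probe. Its relative JDP2 had ratios of -0.62 and -1.69 and JUN, of the AP-1 complex, had -0.65 and -0.74. The leucine zipper factor MAF stood on the other side at 2.39 and 0.49, but a second MAF probe averaged 0.18.

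In the synthesis of serine, glycine, one-carbon units and other amino acids, 5 of 17 genes had lower and 3 had higher ratios on both. Of all genes, 21.9% had lower and 23.5% higher ones. PYCR1, a proline synthesis enzyme, had 10.43 and 10.77 in pubertal cultures, against 10.99 and 13.02 in infant cultures. GPT2, a mitochondrial alanine transaminase, had 8.38 and 7.75 in pubertal cultures, against 8.61 and 10.27 in infant cultures. In both genes infant culture 2 was the outstanding one, and the ratios were -0.57 and -2.25 for PYCR1 and -0.23 and -2.52 for GPT2. The second probe of PYCR1 averaged -0.72, where the first averaged -1.41. BCAT1, a branched-chain transaminase, had ratios of -0.95 and -0.01, although a second probe had -0.09 and -0.27. Its levels were 6.37 and 7.52 in pubertal cultures, against 7.32 and 7.53 in infant cultures. Pubertal culture 1 was thus the low one, and infant culture 1 did not stand out as it did for PSAT1. SHMT1, the cytosolic serine hydroxymethyltransferase, had ratios of 0.47 and 0.93.

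Of 12 amino acid transporters, on both arrays 3 were lower and 3 higher, where 21.9% and 23.5% of all genes were. The neutral amino acid carriers SLC1A4, SLC1A5 and SLC38A1 had ratios of -0.44 and -1.45, -0.86 and -0.80, and -0.28 and -0.86. The cationic carrier SLC7A1 had 1.09 and 0.30. On array 2, 3 of the 12 were at least 2-fold lower, against 0 on array 1: SLC1A4, SLC7A11 and SLC3A2. SLC7A11 had opposite signs, at 0.03 and -2.36, and so had SLC3A2, at 0.21 and -1.05 (a second probe had 0.11 and -0.03). SLC7A11 had levels of 7.36 and 7.70 in pubertal cultures, against 7.33 and 10.06 in infant cultures, with infant culture 2 far above the rest. The tRNA synthetase list held 9 of 21 genes lower and 2 higher on both arrays, with medians of -0.19 and -0.20. On array 1 alone 17 of the 21 were lower, and on array 2 alone 11. Of all 19611 genes, 8832 were lower on array 1 and 10472 on array 2. AARS, for alanine, had -1.03 and -0.56, GARS, for glycine, -0.68 and -0.70, and YARS, for tyrosine, -0.76 and -0.42, and the tRNA exporter XPOT had -0.31 and -0.86. Second probes had the same sign and smaller means for SLC7A1 (0.37 against 0.70) and XPOT (-0.37 against -0.59), and a larger one for SLC1A4 (-1.32 against -0.95). MARS, of the synthetase list, counts as lower at -0.44 and -0.20, but its second probe had 0.56 and 2.48.

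Among the lists of further pathway genes, the stress effectors under ATF4 had the lowest median on array 2, at -0.49, and 12 of its 23 genes were lower and 2 higher on both arrays. GDF15, a secreted stress cytokine, had 10.87 and 10.94 in pubertal cultures, against 10.95 and 14.53 in infant cultures. CHAC1, which breaks down glutathione, had 9.26 and 9.24 in pubertal cultures, against 9.46 and 12.39 in infant cultures. In both, 3 cultures lay together and infant culture 2 stood far above them, the form seen for TRIB3, DDIT3 and CEBPG, with ratios of -0.08 and -3.60 for GDF15 and -0.20 and -3.15 for CHAC1. The autophagy receptor SQSTM1 had -0.42 and -1.68, and the collagen receptor DDR2 had -1.02 and -1.01.

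Neighbouring pathways were listed as well. In the other arms of the unfolded protein response 4 of 20 genes were lower and 2 higher on both arrays, with medians of 0.22 and -0.29. Of all genes, 21.9% were lower and 23.5% higher on both. EDEM1, of the disposal of misfolded glycoproteins, had -0.15 and -0.85 and the chaperone CANX -0.18 and -0.58 (a second probe averaged 0.12). The disulphide isomerase PDIA4 had -0.64 and -0.11 and SDF2L1 had 0.75 and 0.10. Over all 19611 genes, 10472 were lower on array 2 and 8832 on array 1. On array 2 by itself 15 of the 20 were lower, 3 of them at least 2-fold, and on array 1 by itself 7. These 3 were HERPUD1 (0.16 and -1.60), DNAJB9 (0.52 and -1.37) and ERN1 (0.31 and -1.15), each with opposite signs. HERPUD1 had 13.6 and 13.4 in pubertal cultures, against 13.5 and 15.0 in infant cultures. A second ERN1 probe had -0.11 and 0.19. Among 10 TORC1 regulators, 2 were lower and 3 higher on both arrays, where 21.9% and 23.5% of all genes were. The ratios were 0.13 and 1.29 for the inhibitor DEPTOR (DEPDC6 on the array) and 0.32 and 0.33 for the activator RHEB. They were 0.34 and 0.22 for RPTOR (KIAA1303) and -0.04 and -0.61 for NPRL3 (C16orf35).

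Hypoxia and glucose deprivation genes were listed because DDIT4 also answers to low oxygen, and 7 of 14 were lower and 2 higher on both arrays. NDRG1 had -0.93 and -1.34, the oxygen sensor EGLN3 -1.25 and -0.67 and the mitophagy receptor BNIP3 -1.20 and -0.31, while HIF1A, the oxygen-regulated factor itself, had 0.70 and 0.55. NDRG1 thus stood low on both arrays, but its second probe averaged -0.18.

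**Figure D3:**
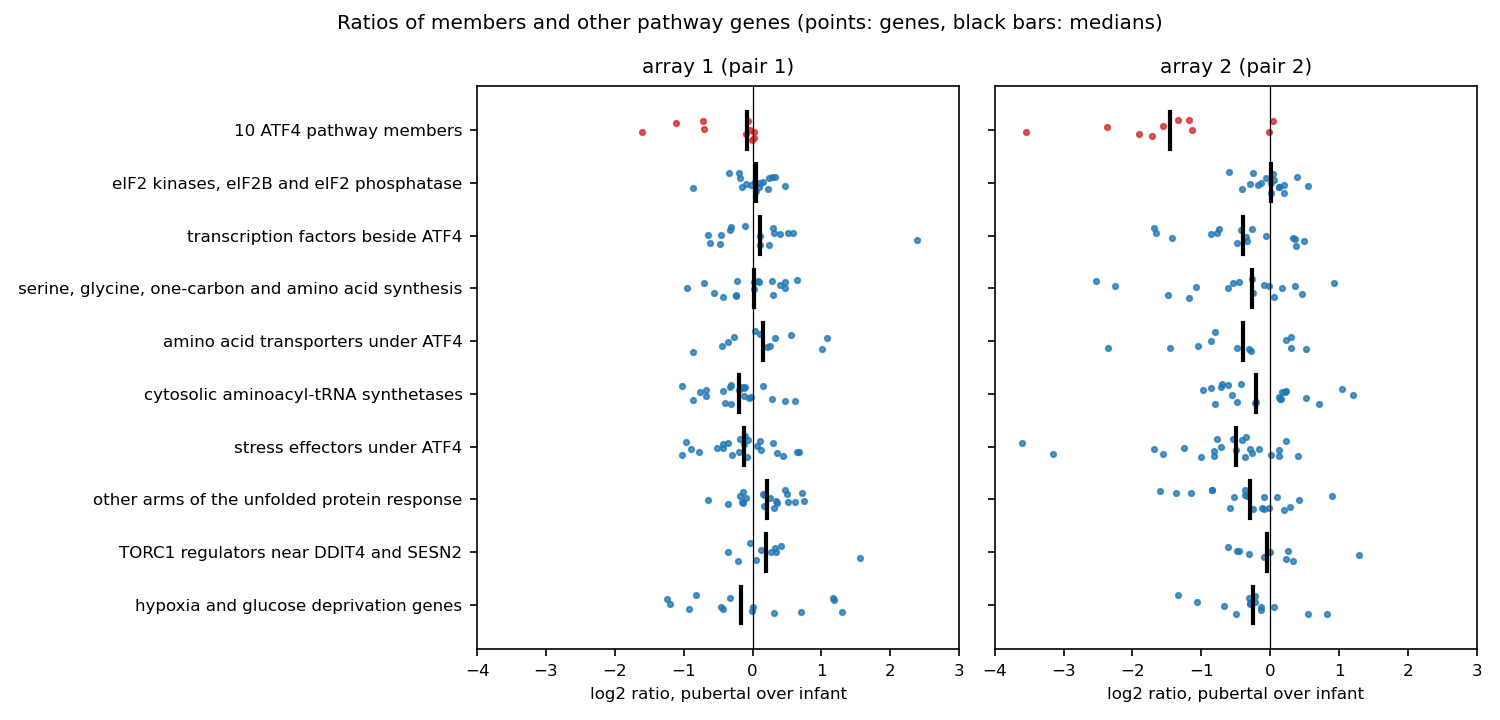
Log2 ratio of pubertal over infant (horizontal axis) for each member (red) and each other pathway gene by list (blue, vertical axis) on array 1 (left) and array 2 (right), with black bars at the medians. The members' median lies at -0.09 on array 1 and -1.45 on array 2, and the lowest blue points on array 2 are GDF15 at -3.60 and CHAC1 at -3.15.

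Of the genes outside the list, the 5 named ones whose pair of ratios lay closest to the members' medians, over 2 arrays and by straight-line distance, were COL13A1, ARHGAP30, HSD17B1, ARFGAP3 and EAF2. COL13A1 came nearest, at -0.10 and -1.44, a distance of 0.0141, and the distance for EAF2 was 0.138.

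Markers of the cell types that the cultures could hold were compared in the same way. Of the Sertoli cell markers 16 were measured, 2 lower and 8 higher on both arrays, where 21.9% and 23.5% of all genes were. Ratios were -0.27 and 0.62 for SOX9, 0.42 and 0.57 for WT1, 1.45 and 1.28 for CLDN11 and -0.24 and -0.17 for FSHR. FSHR, which encodes the FSH receptor, was well above background in 1 of 2 pubertal and both infant cultures, at levels of 6.55 and 6.53 in pubertal cultures, against 6.79 and 6.70 in infant cultures. Germ cell markers were higher on both arrays in 13 of 15 genes, where 23.5% of all genes were, with DAZL at 1.18 and 1.65 and DDX4 at 0.61 and 0.28. SYCP3, MAGEA4, GFRA1 and KIT of this list were well above background in 1 of 2 infant cultures and passed the filter through the pubertal cultures alone. Stromal markers were lower on both arrays in 10 of 14 genes, where 21.9% of all genes were, with PDGFRB at -1.08 and -1.01 and COL1A1 at -0.84 and -0.03.

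The sums of normalised intensity here and below add probes whose levels are not comparable, so the brightest probes weigh most and the sums do not measure cell content. Some of these probes were saturated: VIM of the stromal list had 2 saturated spots, and the Sertoli markers INHA, INHBB and TF had 1 each. The Leydig markers CYP11A1 and STAR also had 1 each, as did TPM2, the brightest peritubular myoid marker. Germ cell markers came to 4042 and 3496 in pubertal cultures 1 and 2, against 2316 and 2235 in infant cultures 1 and 2. Stromal markers came to 68074 and 105881, against 139540 and 115927. The sums of the Sertoli cell markers were 160370 and 140176 in pubertal cultures, against 129108 and 113452 in infant cultures. Leydig cell markers summed to 137747 and 158729 in pubertal cultures, against 133559 and 88027 in infant cultures. By gene, 3 of the 9 were lower on both arrays, each at least 2-fold, and 1 was higher. Over all genes 21.9% were lower on both, 0.352% at least 2-fold lower and 23.5% higher. CYP17A1 had ratios of -2.12 and -1.45 and INSL3 had 1.37 and -0.20, with 0.05 and 0.01 by a second INSL3 probe. Among the brightest Leydig markers were HSD3B1, at -0.00 and 1.76, and HSD3B2, at -0.43 and 2.46, each with 1 saturated spot. Macrophage markers summed to 3069 and 1794 in pubertal cultures, against 1437 and 1639 in infant cultures. Ratios were 0.17 and -0.03 for CD14 and 0.18 and 0.53 for CSF1R. Of the 10 genes, both ratios were positive for 5, both negative for 1 and of opposite sign for 4. The brightest probes in pubertal culture 1 were those of CD163, at 2.44 and -0.36, and MNDA, at 1.81 and 1.66. MNDA and ITGB2 were well above background in 1 of 2 infant cultures, so the pubertal cultures alone carried them through the filter. Endothelial markers summed to 1136 and 1079 in pubertal cultures, against 905 and 930 in infant cultures.

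Peritubular myoid markers were higher on both arrays in 5 of 9 genes and lower in 2, where 23.5% and 21.9% of all genes were. Their sums were 58717 and 98505 in pubertal cultures, against 36001 and 90668 in infant cultures. Infant culture 2 exceeded infant culture 1 by a median of 1.81 over these 9 genes and pubertal culture 2 exceeded pubertal culture 1 by 1.61. The part of these cell types in the members' ratios was not tested, and in RNA from a whole culture fewer cells of a type and less RNA per cell cannot be told apart.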

How the data were processed

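RNA of 4 primary cultures was measured on 2 two-colour arrays of a human design. Per the file headers, the deposited scanner files hold mean spot and median background intensity, processed intensity and log10 ratios (Cy5 over Cy3), with flags for saturation, outliers and signal above background as another unit. Agilent Feature Extraction 9.5.1.1 read the scans, according to the submitters' processing notes. The table of log2 ratios deposited by the authors covers 4848 probes, 11 of them of members, in the pubertal-over-infant direction with slopes of 1.01 and 1.00 on the scanner's ratios; the sources used here do not give its centring and probe selection. Its column medians were -0.37 and 0.12.

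Intensities were corrected by normexp (offset 50) and loess in limma 3.58.1 (R 4.3.3). Outlier spots were left out and control spots had no weight. Spots were averaged to 41000 probes. The dye labels set the direction, pubertal over infant. Probes well above background for 1 stage on both arrays were kept (15230 were not), and the brightest probe stood for a gene. Levels followed loess within arrays and Aquantile scaling of average intensity between arrays, which leaves the ratios unchanged. The offset shrinks ratios of dim probes. The fit (lmFit, eBayes, two-sided, Benjamini-Hochberg over 19611 genes) was tested on simulated data. The arrays came from 1 slide, so no slide batch could be tested.

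Members and lists were chosen with earlier results of these data known. Named were all members with every probe, the 4 genes of each pathway list with the largest mean among those of the same sign on both arrays, the 5 genes nearest to the members and the defining markers. Some pathway genes with opposite signs and some bright markers were named as well. Alternatives were other offsets, scaling, filters, probe rules and single arrays.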

Additional observations from a re-analysis of the deposited data

How the results depend on the processing

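The mean ratio of each member was recomputed under other background, scaling, filter and probe settings: 65 of these values moved by less than the spread between arrays, which is wide for most members, and 4 moved by more (STC2 averaged over both probes, at -1.48, and PHGDH with offset 0, with the scanner's ratios and with median centring). For counts lower on both arrays in single pathway lists, 54 stayed within 1.5 times and 9 did not. Those 9 were the counts with median centring, which fell in every pathway list. The stress effectors under ATF4 went from 12 to 3 and the tRNA synthetases from 9 to 1. With median centring, members lower on both arrays numbered 3 instead of 8, pathway genes 10 instead of 51 and genes at least 2-fold lower on both arrays 23 instead of 69. That last count was 130 with offset 0 and 218 with the scanner's ratios. With a single array, pathway genes lower numbered 75 to 100 and genes at least 2-fold lower 465 to 583, since 1 array in place of 2 had to meet the condition. Limma's test called 1 gene, CST9L, with offset 0, with median centring and with an intensity trend in the prior, and 0 under the other settings with both arrays; its adjusted p ran from 2.36e-06 to 1.00. No member passed under any of these. Fitted as separate channels without the array as a pair, the test called 0 genes, with 854 at an unadjusted p under 0.05. With 2 arrays the order of the cultures within a stage rests on single hybridisations, and saturation bounds the ATF4 values of the brighter probe.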
